A study of Arabidopsis thaliana with 18 samples.

Results

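The salt response of Arabidopsis thaliana roots was compared between 2 isoprene-emitting transgenic lines, C4 and B2, and wild type (WT). The quantity described is a difference of differences on the log2 scale. It is the mean of the changes from 0 to 150 mM NaCl in C4 and in B2, minus the change in WT. It uses 17 of the 18 deposited libraries and 21367 of 24532 genes, and it turns on the 1825 genes that changed at least 2-fold with salt.

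The groups were WT, C4 and B2 roots at 0 and at 150 mM NaCl. They held 3 libraries each, except WT at 150 mM, which held 2. C4 and B2 carry the isoprene synthase of Eucalyptus globulus behind the promoter of RBCS1A, the Arabidopsis gene of a rubisco small subunit that is active above all in green tissue. Each line is a single transgenic line, selected per the labels' protocols for high isoprene emission. The protocols describe an empty vector line as the non-emitting control, whereas the samples used here are labelled WT, so the vector and the transgene cannot be told apart. The sources used here give neither plant age nor growth conditions at 150 mM, and the labels do not tie libraries to separate plants. The p-values thus cover only the spread between libraries, which may be technical.

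Salt raises the hormone abscisic acid (ABA) in roots. ABA binds PYR/PYL receptors, which block clade A PP2C phosphatases and so free SnRK2 kinases to activate ABF transcription factors. ABF factors bind ACGTG sequences before genes of dehydration protection, such as those of LEA proteins. Sodium itself is handled by transporters, among them SOS1, which exports it, and HKT1, which takes it out of the xylem sap. Isoprene is a volatile made from a product of the plastid MEP pathway.

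Libraries held 54233853 to 91527683 counted reads. The 12 root markers, from root hair, endodermis, stele and meristem, were all read in every library, the lowest being WOX5 at 0.737 to 3.55 CPM (reads scaled to a common library total, with TMM factors). WT libraries 1 and 2 at 0 mM agreed exactly in 24515 of 24532 genes, differed by less than sampling noise, and were counted as 1 sample. In these bulk roots, fewer cells of a type and less RNA per cell cannot be told apart.

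A pair of libraries stood apart from their labels in MRD1, and 1 of them also in ANNAT3, 2 genes known from earlier looks at these data. MRD1 was at 2.06, 0.0965 and 0.418 CPM in WT at 0 mM and at 1.72 CPM in WT library 1 at 150 mM. In the library labelled WT 150 mM library 2 it was at 33.4 CPM, and in the 6 line libraries at 150 mM it was at 38.2 to 44.0 CPM. The library labelled B2 0 mM library 3 held MRD1 at 0.0499 CPM, against 36.3 and 37.8 in the other B2 libraries at 0 mM. ANNAT3, an annexin, was at 96.8 CPM in that same library and at 0.458 to 1.36 CPM in the other 5 B2 libraries. That library was at -55.5 and 36.2 on the first and second principal components, the main axes of spread between libraries. WT 0 mM library 3 was at -56.1 and 36.0. On the second component the other B2 libraries at 0 mM were at -18.5 and -9.91. The other WT libraries used at 0 mM were at 1.71 and -4.35. The cause was not tested, and most values below keep B2 0 mM library 3 in. In WT at 150 mM ANNAT3 was at 76.0 to 177 CPM, so the library labelled WT library 2 stood apart in MRD1 only. In C4 at 150 mM ANNAT3 was at 59.3 to 162 CPM, so its level does not tell WT from C4. WT at 150 mM therefore rests on library 1 and on a library whose MRD1 level was near that of the lines. For most genes and lists described below, the difference is therefore also given without it and without library 1. The transgene has no Arabidopsis gene model and was not analysed here. For these 2 genes the difference itself was -3.89 for MRD1 and -3.13 for ANNAT3, and MRD1 moved to -0.56 without WT library 2. ANNAT3 moved to -0.76 without B2 0 mM library 3.

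No gene passed the test of the difference. With edgeR's quasi-likelihood test and Benjamini-Hochberg adjustment, 0 of 21367 genes (0.0%) had an adjusted p under 0.05, and 867 (4.06%) had an unadjusted p under 0.05, 420 (1.97%) with a higher and 447 (2.09%) with a lower response in the lines. DESeq2 called 1 gene (0.00468%), AT1G75945, named here because it is the only such call. AT1G75945 was at 0.437 and 4.53 CPM in WT at 150 mM, at 0 in the 3 C4 libraries, and at 0.0501, 0.0913 and 0 in B2. Taken line by line, against the same WT libraries, edgeR called 0 genes for C4 (775 at unadjusted p under 0.05, 3.63%; DESeq2 called 6) and 0 for B2 (967, 4.53%; DESeq2 called 1). Between B2 and C4 it also called 0 genes (776, 3.63%; DESeq2 called 16).

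The salt response itself was plain in the same libraries. Averaged over the 3 genotypes, 8987 genes (42.1%) had an adjusted p under 0.05 by edgeR's quasi-likelihood test. Of these, 1825 (8.54% of genes tested) changed at least 2-fold, 1036 upward (4.85%) and 789 downward (3.69%), and they are called salt-responsive. The median response of those that rose was 1.79 on the log2 scale in WT, 1.46 in C4 and 1.48 in B2. Those that fell had median responses of -1.72, -1.48 and -1.24.

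Point estimates leaned toward a smaller response in the lines. Of the 1036 genes that rose, 773 had a smaller and 263 a larger estimate in the lines, and 603 and 148 of these did so in C4 and in B2 alike. Of the 789 that fell, 561 had a smaller and 228 a larger estimated fall, 434 and 111 of them in both lines. Responding less or more refers to these estimates throughout. C4 and B2 are read against the same WT libraries, so a shared direction is not a second observation. The median difference was -0.30 for genes that rose and 0.35 for genes that fell, beside 0.01 over all genes tested. At unadjusted p under 0.05 by edgeR's quasi-likelihood test stood 107 genes that responded less and 14 that responded more, and 0 of the 1825 passed after adjustment. Over all 21367 genes tested, 867 (4.06%) stood there. The 1825 were picked on a mean that includes the WT libraries, so no test is attached to this split.

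Lines and WT were then compared at each NaCl level. Among genes that rose with salt, the median log2 level of the lines minus WT was 0.07 at 0 mM and -0.25 at 150 mM. Among genes that fell it was -0.08 at 0 mM and 0.28 at 150 mM. Each level depended on single WT libraries. For genes that rose, the median at 0 mM was 0.37 without WT 0 mM library 4, -0.06 without library 1 and -0.01 without library 3. The median at 150 mM was 0.07 without WT 150 mM library 1 and -0.48 without library 2. For genes that fell, the same removals gave -0.17, 0.10 and -0.10 at 0 mM, and 0.04 and 0.73 at 150 mM. No gene passed the test between lines and WT at 0 mM (686 at unadjusted p under 0.05 with edgeR, 3.21%; DESeq2 called 1) or at 150 mM (1799, 8.42%; DESeq2 called 23).

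The size of the lean depended on which WT library was read. All 1825 genes counted, 73.1% responded less in the lines. Without WT library 1 at 150 mM the share was 55.2%, with medians of -0.04 and 0.07. Without library 2 it was 78.2%, with medians of -0.52 and 0.83. Leaving out WT 0 mM library 1 gave 62.3%, with medians of -0.15 and 0.20. Leaving out WT 0 mM library 4 gave 81.4%, with medians of -0.66 and 0.45. Removing B2 150 mM library 1 gave 65.1%, with medians of -0.21 and 0.20, and the other single removals gave 69.2% to 78.5%. The share was 73.6% when B2 0 mM library 3 was dropped and 78.7% when WT 150 mM library 2 was dropped with it.

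**Figure D1:**
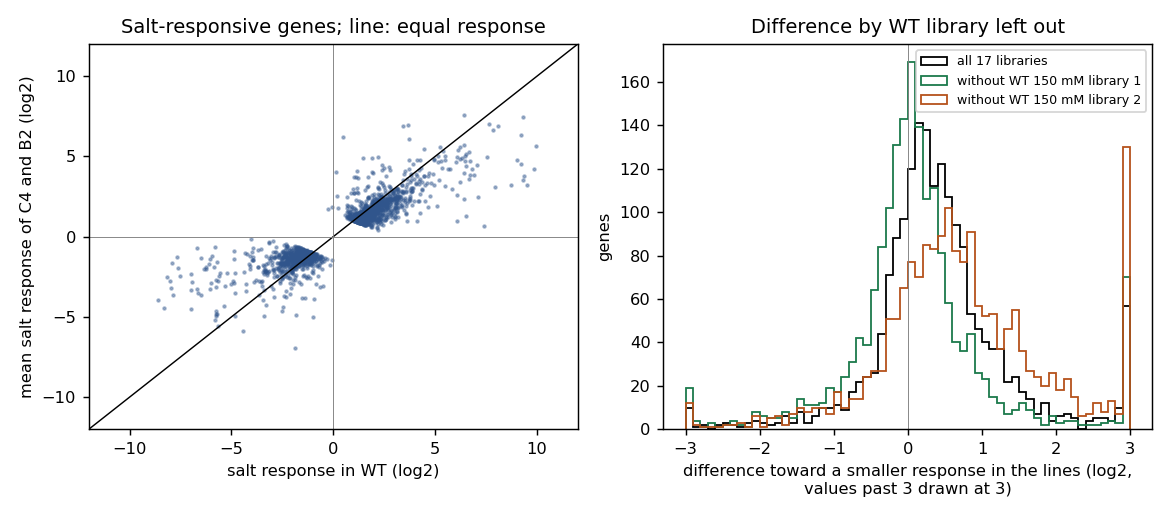
Left, the log2 salt response of each of the 1825 salt-responsive genes in WT (x axis) and as the mean of C4 and B2 (y axis), with the line of equal response. Right, the number of genes by how far the difference points to a smaller response in the lines, with all 17 libraries and without each WT 150 mM library. The curve without library 1 centres close to 0, and the curve without library 2 lies farthest to the right.

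**Figure D2:**
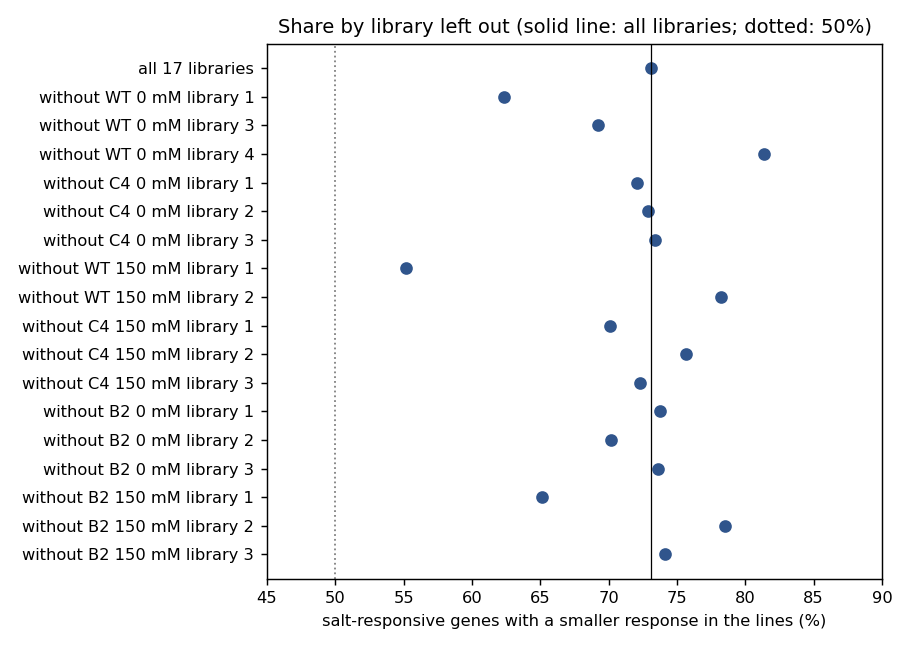
The share of salt-responsive genes with a smaller response in the lines (x axis, percent) with all libraries and with each library left out in turn (y axis). Shares run from 55.2% without WT 150 mM library 1 to 81.4% without WT 0 mM library 4.

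The levels of these genes were then compared by library. Each library was placed by the median deviation, over the genes that rose with salt, of log2(CPM + 1) from the mean of all libraries. At 150 mM, WT library 1 was the highest of the 8 libraries at 0.91. The library labelled WT library 2 was at 0.53, inside the ranges of 0.46 to 0.78 in C4 and 0.14 to 0.83 in B2. At 0 mM the WT libraries were at -0.77, -0.66 and -0.26, C4 at -0.40, -0.41 and -0.49, and B2 at -0.53, -0.37 and -0.65. The WT libraries thus spread more widely than those of either line at 0 mM.

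How the salt-responsive genes are picked also moves the share. Picked on WT alone, 1484 of 1651 genes (89.9%) responded less in the lines. Picked on C4 and B2 without WT, a choice made after seeing the data, 506 of 764 (66.2%) did. In that choice the share was 73.4% of the genes that rose, with a median difference of -0.23, and 52.3% of those that fell, with a median of 0.03. A gene picked for a large response in a group tends to show a smaller one elsewhere, and the mean over genotypes includes the WT libraries, so no test is attached to these shares.

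The width of the intervals limits what can be said of single genes. For 299 of the 1825 genes the 95% interval of the difference lay within 2-fold in either direction, and for 1526 it reached beyond. The median SE was 0.53 for genes that rose and 0.60 for genes that fell, beside 0.25 over all genes tested.

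ABA-induced and dehydration genes rose with salt averaged over the 3 genotypes. All 28 members tested were among the genes that rose, with median responses of 3.20 in WT, 2.65 in C4 and 2.71 in B2. Over all genes tested 4.85% rose, and the list was chosen with earlier results of these data known. The difference was below 0 in 26 of 28 members, with a median of -0.61, and 2 members, KIN1 and COR15B, had an unadjusted p under 0.05. Of all 1036 genes that rose, 74.6% also had a difference below 0, and 2.09% of all genes tested were lower at unadjusted p under 0.05. None of the 28 passed after adjustment. The median was 0.02 without WT 150 mM library 1 and -1.05 without library 2.

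LEA7 encodes a late embryogenesis abundant protein of the kind that protects other proteins in drying cells. LEA7 stood at 0.643, 3.50 and 6.68 CPM at 0 mM in WT, 6.24, 17.0 and 5.14 in C4 and 2.53, 7.96 and 3.97 in B2. LEA7 at 150 mM was at 535 and 193 CPM in WT, 193, 469 and 315 in C4 and 124, 322 and 202 in B2. LEA7 rose in every genotype, and WT and line libraries overlapped. Its log2 response was 6.66 in WT and, in C4 and B2, 5.10 and 5.48. The difference was -1.36 (SE 0.93, 95% interval -3.36 to 0.63, unadjusted p = 0.165), and it was -0.45 without WT library 1 and -1.94 without library 2.

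RD29A (LTI78) and RD29B (LTI65) are classical markers of dehydration and ABA. RD29A at 150 mM was at 2712 and 1557 CPM in WT, 1024, 2936 and 1632 in C4 and 879, 3177 and 2367 in B2. RD29B at 150 mM was at 207 and 78.2 CPM in WT, 71.7, 215 and 142 in C4 and 57.5, 181 and 100.3 in B2. The highest RD29A and RD29B values were in line libraries. The difference was -0.51 (SE 0.69, 95% interval -1.99 to 0.96, unadjusted p = 0.469) for RD29A, and it was -0.06 without WT library 1 and -0.88 without library 2. For RD29B it was -0.65 (SE 1.09, 95% interval -2.99 to 1.69, unadjusted p = 0.561), and 0.22 without WT library 1 and -1.21 without library 2. Leaving out a library other than these took the RD29B difference further below 0, as given in the last section.

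KIN1 encodes a small hydrophilic stress protein. KIN1 stood at 46.5, 50.5 and 94.4 CPM at 0 mM in WT, 127, 263 and 114 in C4 and 176, 144 and 66.5 in B2. KIN1 at 150 mM was at 689 and 399.8 CPM in WT, 434, 766 and 688 in C4 and 356, 617 and 409 in B2. The line libraries lay above most WT libraries at 0 mM and overlapped with WT at 150 mM. The difference was -1.22 (SE 0.54, 95% interval -2.39 to -0.06, unadjusted p = 0.0411), with an adjusted p of 1.00 by edgeR's quasi-likelihood test, and it was -0.78 without WT library 1 and -1.58 without library 2. KIN1 has a near-identical neighbour, KIN2, whose difference was -0.67, and reads shared by both were not counted. COR15B, a cold- and drought-induced chloroplast protein, was at 0 CPM in all WT libraries at 0 mM and at 2.11 and 0.278 CPM in WT at 150 mM, too low for its fitted difference to be read.

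Clade A PP2C phosphatases, the brakes of the ABA pathway, rose with salt in 7 of 9 members. Their median difference was -0.39, 0.09 without WT 150 mM library 1 and -0.70 without library 2, and 0 members had an unadjusted p under 0.05. HAI3, a highly ABA-induced member, stood at 0.536, 0.515 and 0.486 CPM at 0 mM in WT, 1.14, 0.998 and 0.648 in C4 and 0.385, 0.623 and 0.574 in B2. HAI3 at 150 mM was at 79.1 and 12.6 CPM in WT, 10.9, 51.5 and 25.1 in C4 and 12.4, 29.8 and 11.4 in B2. WT library 1 was the highest of all and the library labelled WT library 2 was within the line libraries. The difference for HAI3 was -1.46 (SE 0.88, 95% interval -3.34 to 0.43, unadjusted p = 0.12), and it changed sign between the WT libraries, at 0.41 without WT library 1 and -2.26 without library 2.

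For receptors and kinases the medians were smaller in size. The median was -0.22 over 11 ABA receptors, and it changed sign between the WT libraries, at -0.25 without WT 150 mM library 1 and 0.03 without library 2. It was -0.02 over 14 SnRK2 kinases and ABF factors, and -0.19 to 0.06 over single removals. SNRK2.5 had the lowest unadjusted p of these, with a difference of -0.42 (SE 0.19, 95% interval -0.81 to -0.02, unadjusted p = 0.0395), which was -0.26 without WT library 1 and -0.57 without library 2. The 15 genes of ABA synthesis and catabolism had a median of 0.01, which was 0.18 without WT 150 mM library 1 and -0.37 without library 2. NCED3, the dioxygenase that limits stress-induced ABA synthesis, was at 202 and 65.4 CPM in WT at 150 mM, 55.9, 129 and 93.2 in C4 and 50.0, 106 and 59.6 in B2. Its difference was -0.79 (SE 0.62, 95% interval -2.12 to 0.53, unadjusted p = 0.219), and it was 0.24 without WT library 1 and -1.41 without library 2.

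P5CS1 makes the precursor of proline, the main compatible solute of salt-stressed Arabidopsis. P5CS1 stood at 32.4, 55.5 and 72.1 CPM at 0 mM in WT, 76.9, 65.8 and 56.2 in C4 and 58.8, 58.9 and 52.4 in B2. P5CS1 at 150 mM was at 682 and 311 CPM in WT, 289.7, 483 and 396 in C4 and 203, 435 and 305 in B2. P5CS1 rose in every genotype, with a log2 response of 3.22 in WT and, in C4 and B2, 2.55 and 2.47. The difference was -0.71 (SE 0.43, 95% interval -1.63 to 0.22, unadjusted p = 0.124), and it was -0.03 without WT library 1 and -1.18 without library 2. The 18 genes of proline and compatible solutes had a median of 0.04, which ran from -0.24 without WT 0 mM library 4 to 0.12 without WT 0 mM library 1 over single removals.

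**Figure D3:**
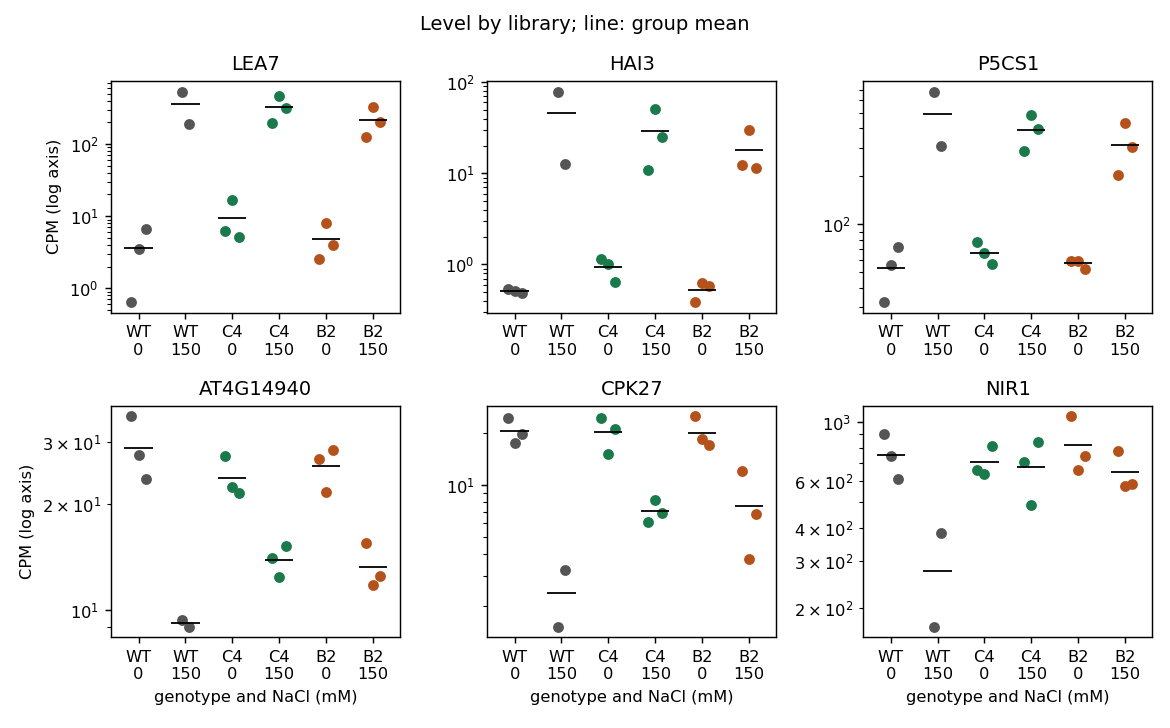
CPM on a log axis for 6 genes in each library (points) with the group mean (line), by genotype and NaCl. WT and line libraries at 150 mM overlap for LEA7, HAI3 and P5CS1, and lie apart for AT4G14940, CPK27 and NIR1.

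Genes of sodium and potassium transport, a list that also holds kinases, calcium sensors, proton pumps and anion channel homologues, were split in direction. Of the 24 members, 12 had a difference above and 12 below 0, from -0.77 for SLAH1, an anion channel homologue, to 0.77 for HA2, a plasma membrane proton pump. The median was 0.01, and without WT 150 mM library 1 and without library 2 it was -0.04 and 0.08. SOS1 at 150 mM was at 37.8 and 55.9 CPM in WT, 48.8, 60.0 and 44.4 in C4 and 53.4, 65.9 and 64.2 in B2. SOS1 had a difference of 0.32 (SE 0.25, 95% interval -0.22 to 0.86, unadjusted p = 0.229), which was 0.06 without WT library 1 and 0.61 without library 2. HKT1 at 150 mM was at 14.0 and 12.4 CPM in WT, 11.2, 8.69 and 11.3 in C4 and 9.52, 11.3 and 8.52 in B2. Both WT libraries were above all 6 line libraries for HKT1, by a small margin. The HKT1 difference was -0.52 (SE 0.28, 95% interval -1.10 to 0.07, unadjusted p = 0.08). It was -0.43 without WT library 1 and -0.62 without library 2, and -0.25 without WT 0 mM library 1.

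Since no gene passed, the 12 salt-responsive genes of at least 5 CPM with the lowest unadjusted p in each direction are described, and each had an adjusted p of 1.00 by edgeR's quasi-likelihood test. The 12 that responded less were AT4G14940, CPK27, AT1G14550, AT2G44130, AT5G24080, AT1G71140, AT1G24600, AT3G53960, CLE5, AT5G41670, AT3G03341 and CYP89A7. Their unadjusted p ran from 0.00233 to 0.0203 and their differences from 0.72 to 2.59 in size. WT and line libraries did not overlap at 150 mM in 8 of the 12, against 1900 of 21367 genes tested (8.89%). Among the 1825 salt-responsive genes they did not overlap in 111 (6.08%). The 12 genes were picked for low p, so their count describes them only.

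AT4G14940, an amine oxidase, led the list. AT4G14940 stood at 35.5, 27.7 and 23.5 CPM at 0 mM in WT, 27.5, 22.4 and 21.6 in C4 and 26.9, 21.6 and 28.5 in B2. AT4G14940 at 150 mM was at 9.41 and 8.99 CPM in WT, 14.0, 12.5 and 15.2 in C4 and 15.5, 11.8 and 12.5 in B2. Both WT libraries at 150 mM were below all 6 line libraries, while the groups overlapped at 0 mM. Its log2 response was -1.65 in WT and, in C4 and B2, -0.78 and -0.95, and the difference was 0.79 (SE 0.22, 95% interval 0.33 to 1.25, unadjusted p = 0.00233). It kept its size whichever WT library at 150 mM was left out, at 0.82 without WT library 1 and 0.74 without library 2.

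CPK27 is a calcium-dependent protein kinase. CPK27 stood at 24.3, 17.57 and 19.8 CPM at 0 mM in WT, 24.5, 15.2 and 21.2 in C4 and 25.0, 18.3 and 16.9 in B2. CPK27 at 150 mM was at 1.52 and 3.23 CPM in WT, 6.14, 8.17 and 6.85 in C4 and 12.0, 3.73 and 6.80 in B2. The groups overlapped at 0 mM and lay apart at 150 mM, with B2 library 2 close to WT library 2. The difference was 1.65 (SE 0.48, 95% interval 0.62 to 2.67, unadjusted p = 0.00375), and it was 1.201 without WT library 1 and 2.27 without library 2.

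The others that responded less had mixed roles. AT1G14550, a peroxidase, had log2 responses of -3.17 in WT and, in C4 and B2, -0.97 and -1.69. AT1G71140, a MATE efflux carrier, had responses of -2.25 in WT and, in C4 and B2, -0.21 and -1.01. AT5G41670, a 6-phosphogluconate dehydrogenase family member, was at 123 and 155 CPM in WT at 150 mM, 315, 174 and 393 in C4 and 369, 202 and 236 in B2. CLE5, a small signalling peptide gene, was at 37.9 and 29.4 CPM in WT, 24.6, 24.6 and 23.6 in C4 and 17.5, 28.3 and 24.7 in B2 at 150 mM, so that WT stood above both lines. AT3G03341, annotated as cold-regulated, had the largest difference of the 12, -2.59, and it was -1.46 without WT library 1 and -3.23 without library 2.

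The 12 that responded more were AT3G59710, AT3G45700, AT2G35730, CYP705A1, AT5G19110, XTH16, TH7, MSRB6, BGLU18, UMAMIT22, CYP72A15 and BGAL7. Their unadjusted p ran from 0.00673 to 0.101, and 10 of them fell with salt. WT and line libraries did not overlap at 150 mM in 2 of the 12, AT3G45700 and AT2G35730. AT3G45700, a major facilitator family transporter, was at 33.6 and 29.1 CPM in WT at 150 mM, 14.7, 8.65 and 8.46 in C4 and 16.5, 12.1 and 22.3 in B2. Its difference was -1.03 (SE 0.37, 95% interval -1.83 to -0.23, unadjusted p = 0.015), and it was -0.92 without WT library 1 and -1.15 without library 2.

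AT3G59710, an NAD(P)-binding Rossmann-fold protein, had the lowest p of those that responded more. AT3G59710 stood at 8.50, 8.81 and 5.67 CPM at 0 mM in WT, 13.6, 9.78 and 6.36 in C4 and 8.16, 12.5 and 9.18 in B2. AT3G59710 at 150 mM was at 11.4 and 3.32 CPM in WT, 3.80, 3.86 and 3.93 in C4 and 3.18, 3.52 and 3.06 in B2. WT library 1 at 150 mM stood alone, above its levels at 0 mM, and the library labelled WT library 2 was among the lines. The difference was -1.43 (SE 0.46, 95% interval -2.40 to -0.46, unadjusted p = 0.00673). It was -0.28 without WT library 1 and -2.08 without library 2, where its adjusted p by edgeR was 0.0316.

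The windows from 250 bases before to 50 bases after the start of the first gene of each list are shown, because ABF factors bind ACGTG and DREB factors, which act in drought and cold, bind CCGAC. WRKY factors bind TTGAC. The windows were read from the RefSeq assembly TAIR10.1 at the deposited gene starts, 5′ to 3′ on the gene's strand, and capitals mark these ABF, DREB and WRKY cores on either strand. The window of AT4G14940 lies at chr4:8541629-8541928 on the plus strand and that of AT3G59710 at chr3:22057107-22057406 on the minus strand.
AT4G14940: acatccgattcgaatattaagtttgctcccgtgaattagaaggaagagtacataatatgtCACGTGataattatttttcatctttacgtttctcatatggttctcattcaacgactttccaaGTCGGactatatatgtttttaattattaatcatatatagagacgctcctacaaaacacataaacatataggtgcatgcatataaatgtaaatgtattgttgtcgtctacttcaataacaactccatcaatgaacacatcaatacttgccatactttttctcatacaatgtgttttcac
AT3G59710: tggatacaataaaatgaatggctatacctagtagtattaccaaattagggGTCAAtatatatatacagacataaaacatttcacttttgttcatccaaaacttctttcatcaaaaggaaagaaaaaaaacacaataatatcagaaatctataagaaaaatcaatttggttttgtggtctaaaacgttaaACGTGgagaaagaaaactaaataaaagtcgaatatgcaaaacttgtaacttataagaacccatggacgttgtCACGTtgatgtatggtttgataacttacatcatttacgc
The first window holds a palindromic pair of overlapping ABF cores and 1 DREB core, and the second holds 2 ABF cores and 1 WRKY core.

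Across all 21362 windows read, 28.2% held the ABF core, 15.9% the DREB core and 51.4% the WRKY core. Windows of the 1036 genes that rose with salt held the ABF core in 45.8%, and windows of the 789 that fell in 34.6%. Of the 12 named genes that responded less, 5 held the ABF core, 3 the DREB core and 7 the WRKY core, and of the 12 that responded more, 7, 1 and 5 did. A match is a description of these letters and not of binding.

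Of the 27 gene lists, the jasmonate list had the most members at unadjusted p under 0.05. Jasmonate is a wound and defence hormone, and JAZ proteins repress its responses and are themselves induced by it. The difference was below 0 in 16 of 22 members tested, and 6 had an unadjusted p under 0.05, all lower in the lines and all JAZ genes: JAZ10, JAZ9 (TIFY7), JAZ7, JAZ2 (TIFY10B), JAZ5 and JAZ3. Over all genes tested the share with a lower response at unadjusted p under 0.05 was 2.09%. Only 1 of the 22 members was salt-responsive, and JAZ9, JAZ2 and JAZ3 were not. The median difference was -0.46, and it was 0.01 without WT 150 mM library 1 and -0.79 without library 2.

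JAZ9 stood at 10.3, 14.6 and 17.2 CPM at 0 mM in WT, 19.5, 14.6 and 12.3 in C4 and 22.2, 18.7 and 15.7 in B2. JAZ9 at 150 mM was at 53.6 and 13.7 CPM in WT, 12.2, 13.5 and 11.9 in C4 and 10.4, 10.7 and 19.8 in B2. WT library 1 at 150 mM was the only library far above the rest, and the library labelled WT library 2 lay within the line libraries. The difference was -1.65 (SE 0.50, 95% interval -2.72 to -0.58, unadjusted p = 0.00514), and it was -0.36 without WT library 1 and -2.34 without library 2. JAZ10 had a difference of -2.49, which was -0.86 and -3.25 without library 1 and without library 2. JAZ2 was at 157 and 63.9 CPM in WT at 150 mM, 52.7, 75.4 and 59.9 in C4 and 64.5, 53.9 and 64.9 in B2. Its difference of -1.08 was -0.29 without library 1 and -1.60 without library 2.

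Nitrate uptake and assimilation genes pointed the other way, with 10 of 12 members above 0 and a median difference of 0.48. NIR1, NIA1 and NIA2, the nitrite reductase and both nitrate reductases, had an unadjusted p under 0.05, where 1.97% of all genes tested were higher. Only 2 of the 12 members were salt-responsive, and NIR1 was not. NIR1 stood at 902, 749 and 612 CPM at 0 mM in WT, 663, 637 and 816 in C4 and 1054, 659 and 747 in B2. NIR1 at 150 mM was at 169 and 382 CPM in WT, 711, 489 and 839.7 in C4 and 777, 577 and 586 in B2. The log2 response of NIR1 was -1.45 in WT and, in C4 and B2, -0.05 and -0.34, and both WT libraries at 150 mM were below all line libraries. The difference was 1.25 (SE 0.37, 95% interval 0.46 to 2.04, unadjusted p = 0.00396), and it was 0.78 without WT library 1 and 1.94 without library 2. NIA1 at 150 mM was at 143 and 296 CPM in WT, 809, 407 and 1086 in C4 and 868, 489 and 451 in B2. Again both WT libraries were lowest, and the difference of 1.38 (SE 0.49, 95% interval 0.34 to 2.42, unadjusted p = 0.0126) was 0.95 without WT library 1 and 1.98 without library 2. The list's median was 0.28 without WT library 1 and 1.03 without library 2.

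Aquaporins, the water channels of root membranes, had the least dependence on a WT library among the lists with a median beyond 0.25 in size. The difference was below 0 in 16 of 17 members, with a median of -0.30, and the median stayed between -0.35 and -0.20 when any single library was left out. Only 1 of the 17 was salt-responsive, and the median difference over all genes tested was 0.01. PIP2;3 (RD28) and PIP2;5 had an unadjusted p under 0.05 by edgeR's quasi-likelihood test, where 2.09% of all genes tested were lower. PIP2;3 stood at 143, 140.1 and 156 CPM at 0 mM in WT, 126, 119 and 113 in C4 and 97.7, 108 and 148 in B2. PIP2;3 at 150 mM was at 182 and 171 CPM in WT, 96.0, 109 and 86.2 in C4 and 108, 105 and 96.6 in B2. Both WT libraries at 150 mM were above all 6 line libraries, and most line libraries were also below WT at 0 mM. WT and line libraries did not overlap at 150 mM in 8.89% of all genes tested. The difference for PIP2;3 was -0.51 (SE 0.18, 95% interval -0.89 to -0.13, unadjusted p = 0.0124), and it was -0.46 without WT library 1 and -0.57 without library 2. PIP2;3 has a near-identical neighbour, PIP2;2 (PIP2B), which was -0.20, so its reads are uncertain. PIP1;2 (PIP1B), among the most abundant members, had a difference of -0.37 (SE 0.29).

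Other single genes kept their size whichever WT library at 150 mM was left out. Removals of WT libraries at 0 mM are not given for them. CASP5, a scaffold of the Casparian strip, the seal of the endodermis, was at 24.5 and 24.1 CPM in WT at 150 mM, 13.2, 15.3 and 8.28 in C4 and 8.43, 10.1 and 8.94 in B2. Its difference was -1.18 (SE 0.47, 95% interval -2.19 to -0.18, unadjusted p = 0.0243), and it was -1.17 without WT library 1 and -1.21 without library 2, while the 9 Casparian strip genes together had a median of 0.02, and of -0.17 and 0.22 without library 1 and without library 2. EXPA7, a root hair expansin, was at 38.8 and 38.5 CPM in WT at 150 mM, 19.9, 28.4 and 18.1 in C4 and 23.8, 31.9 and 33.8 in B2. WT lay above all line libraries for CASP5 and for EXPA7. Of the 9 Casparian strip genes 0 were salt-responsive. The EXPA7 difference was -0.59 (SE 0.23, 95% interval -1.08 to -0.09, unadjusted p = 0.0231), and it was -0.58 without WT library 1 and -0.60 without library 2. The 14 root hair genes had a median of -0.24, -0.43 without WT library 1 and 0.03 without library 2.

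GSTU24, a glutathione transferase of detoxification, had a smaller estimated fall in the lines. GSTU24 stood at 433, 476 and 372 CPM at 0 mM in WT, 349, 337 and 324 in C4 and 372, 351 and 476 in B2. GSTU24 at 150 mM was at 141 and 172 CPM in WT, 259, 189 and 303 in C4 and 322, 210.4 and 258 in B2. Both WT libraries at 150 mM were below all line libraries. The difference was 0.93 (SE 0.25, 95% interval 0.40 to 1.46, unadjusted p = 0.0018), and it was 0.80 without WT library 1 and 1.06 without library 2. GSTU24 has a neighbouring paralog, GSTU25, with a difference of 1.46, and counts could be split between them. The 24 genes of reactive oxygen scavenging had a median of 0.01, and of -0.00 and -0.01 under the same removals. HB1, a hemoglobin induced by low oxygen, was at 8.04 and 10.1 CPM in WT at 150 mM, 24.3, 13.8 and 22.3 in C4 and 15.9, 14.6 and 12.9 in B2, with a difference of 1.08 (SE 0.36, 95% interval 0.31 to 1.85, unadjusted p = 0.00882). It was 0.92 without WT library 1 and 1.24 without library 2. The 13 hypoxia genes had a median of 0.11, and of 0.18 and 0.15 under the same removals.

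Photosynthesis genes, markers of green tissue, were below 0 in 19 of 21 members with a median of -0.40. The median was -0.56 without WT 150 mM library 1 and -0.20 without library 2. It reached -1.12 without WT 0 mM library 4, and was -0.14 and -0.09 without WT 0 mM libraries 3 and 1. Their summed level was 184 to 467 CPM in WT at 0 mM and 487 to 617 at 150 mM, 263 to 455 and 439 to 459 in C4, and 228 to 341 and 394 to 583 in B2. No member was at 0 in all libraries of a group, and the part of green tissue in the results was not tested. RBCS1A, whose promoter drives the transgene, was at 58.5 and 44.5 CPM in WT at 150 mM, 29.7, 21.8 and 22.02 in C4 and 15.2, 16.3 and 12.1 in B2. Both WT libraries were higher than every line library, and the difference was -1.05 (SE 0.48, 95% interval -2.07 to -0.03, unadjusted p = 0.0444). It was -0.84 without WT library 1 and -1.25 without library 2.

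The MEP pathway supplies the substrate of isoprene synthase. Its 11 members had a median difference of -0.09 and the 13 mevalonate pathway genes one of -0.04, with 0 members of either at unadjusted p under 0.05. Without WT 150 mM library 1 and without library 2 these were -0.10 and -0.08 for the MEP and 0.07 and -0.09 for the mevalonate genes. The 11 genes of carotenoid synthesis had a median of -0.02, and of -0.10 and -0.02 under the same removals. Salicylate and immune markers were above 0 in 17 of 21 members with a median of 0.37, which was 0.24 without library 1 and 0.73 without library 2. Iron deficiency genes had a median of 0.25, which was -0.14 without WT 150 mM library 1 and 1.15 without library 2. Phosphate starvation genes were above 0 in 13 of 15 members, with a median of 0.24. Both removals gave 0.17, and leaving out WT 0 mM library 4 gave 0.08. Of the 27 lists, 13 had medians of opposite sign without library 1 and without library 2.

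**Figure D4:**
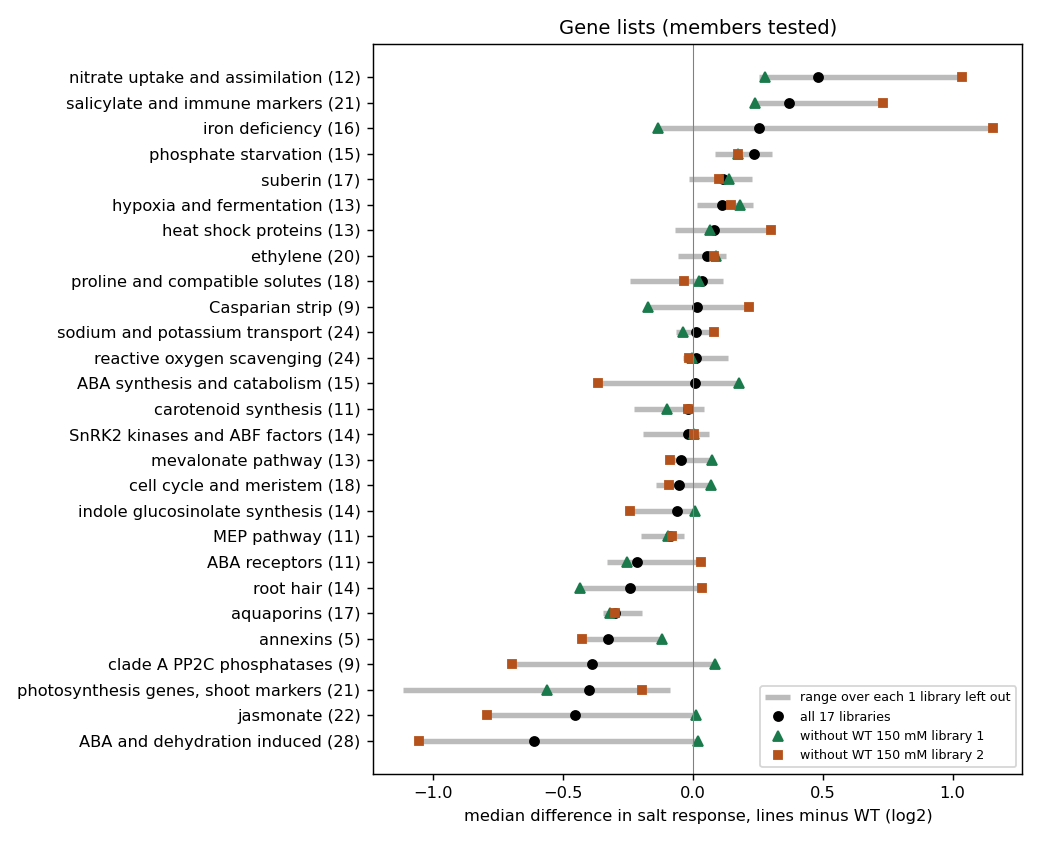
The median log2 difference of each gene list with all 17 libraries (circles), without WT 150 mM library 1 (triangles) and without library 2 (squares), and the range over each single library left out (bars). The ABA and dehydration list runs from -1.05 to 0.02, and aquaporins from -0.35 to -0.20.

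Without the library labelled WT 150 mM library 2, genes did pass the test. By edgeR's quasi-likelihood test 62 genes (0.285%) had an adjusted p under 0.05, 51 with a higher and 11 with a lower difference, and 15 of them were salt-responsive. WT at 150 mM then had a single library, which is assumed to vary like the other groups. Without library 1 instead, 0 genes passed, and without B2 0 mM library 3 alone 0 passed. Without library 2 and B2 0 mM library 3 together 49 genes (0.225%) passed, 43 of them among the 62. The library left out lay within the range of the 6 line libraries at 150 mM in 51 of the 62 genes, outside on the side of library 1 in 4, and outside on the other side in 7. The genes were picked on library 1, so its distance from the lines is not a result, while library 2 had no part in the choice. Over all genes tested, library 1 was outside the line libraries in 43.6% and library 2 in 21.4%. Library 2 thus lay within them about as often over all genes tested as in the genes picked.

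Genes with a higher difference included CRK25, a receptor-like kinase, RLP7 and RLP35, receptor-like proteins, and MLO6, a membrane protein of a family linked to powdery mildew, with nitrogen genes NIR1 and AMT1;2. Genes with a lower difference included JAZ2, JAZ3, JAZ9 and NF-YC2, a transcription factor subunit. CIPK3, a kinase of calcium sensor signalling, was at 67.9 and 116 CPM in WT at 150 mM, 146, 128 and 136 in C4 and 164, 152 and 153 in B2. It is among the 4 genes whose left-out library also stood on the side of library 1. Its difference of 0.78 (SE 0.21, 95% interval 0.34 to 1.22, unadjusted p = 0.00168) was 0.44 without WT library 1 and 1.199 without library 2. AMT1;2, an ammonium transporter, was at 61.7 and 177 CPM in WT, 153, 134 and 125 in C4 and 249.9, 234 and 226 in B2 at 150 mM, so that library 2 was within the line range. CIPK3, NF-YC2, JAZ3, AMT1;2, CRK25, MLO6, RLP7 and RLP35 were named after their values were seen.

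**Figure D5:**
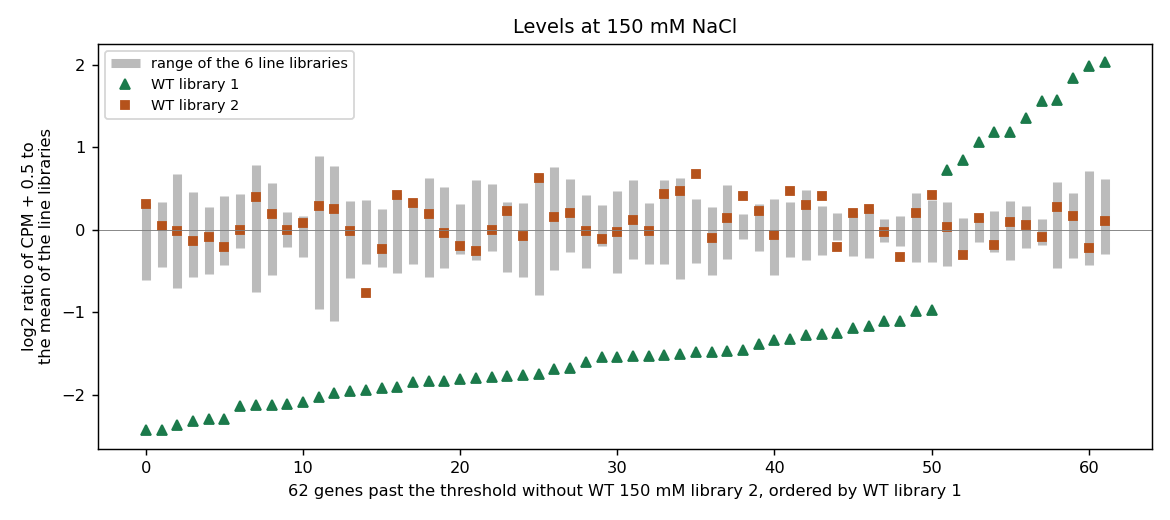
Level at 150 mM of each of the 62 genes (x axis) as the log2 ratio of CPM + 0.5 to the mean of the 6 line libraries (y axis), for WT library 1 (triangles), for the library labelled WT library 2 (squares) and as the range of the line libraries (bars). The squares lie within the bars for 51 genes, and the triangles lie outside. Over all genes tested, the library of the squares was outside the line libraries in 21.4%.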

How the data were processed

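Root total RNA was sequenced as stranded mRNA libraries, and the deposited table holds raw counts of reads per gene, made by the authors with featureCounts 2.0.3 (strand setting 2, mapping quality of at least 10), per the file headers. The submitters' processing notes list fastp, FastQC 0.12.1, STAR 2.7.11a and TAIR10. These settings drop reads that map to several places, which can lower near-identical copies. WT 0 mM library 2 (equal to library 1 in all but 17 genes) and those 17 genes were left out.

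Genes passing edgeR's filter on low counts were fitted in 1 model over 6 groups with TMM scaling (R 4.3.3, edgeR 4.0.16, robust quasi-likelihood), and the contrast was tested over all genes with Benjamini-Hochberg adjustment at 0.05. DESeq2 1.42.0, other scaling, no filter, and each library left out were alternatives. The scripts were tested on simulated data. Members and gene lists were chosen with earlier results of these data known. Named genes were the 12 with the lowest p in each direction among salt-responsive genes of at least 5 CPM with the same sign in both lines, up to 2 per list with the lowest p, and 10 genes always named. Not every gene named by the list rule is described.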

Additional observations from a re-analysis of the deposited data

How the results depend on the processing

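The count of genes passing the test depended on the tool and on single libraries. With each library left out in turn, it ran from 0 to 62 for the lines minus WT, 0 to 8 for C4 minus WT, 0 to 95 for B2 minus WT and 0 to 7 for B2 minus C4. For lines minus WT it ran from 0 to 3 at 0 mM and from 0 to 267 at 150 mM. The highest counts came without WT 150 mM library 2 (lines minus WT, B2 minus WT, 150 mM), C4 150 mM library 2 (C4 minus WT, B2 minus C4) or B2 0 mM library 3 (0 mM). The DESeq2 test called 1, 6, 1 and 16 genes for these 4 differences, 1 at 0 mM and 23 at 150 mM. Without WT 150 mM library 2 and B2 0 mM library 3 together, 49, 2 and 54 genes passed for the lines, C4 and B2 minus WT, 4 at 0 mM and 314 at 150 mM. The salt effect ran from 7904 to 9772 genes over single removals.

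Of the genes responding less, the count was 1334, 1007 to 1484 over single removals, 5817 of 8987 with no fold limit and 506 of 764 picked on the lines alone. Over single removals the difference ran from -2.26 to 0.41 for HAI3, -2.45 to 0.22 for RD29B and -1.41 to 0.24 for NCED3, and was above 0 only without WT 150 mM library 1. The cause was not tested. Other scaling, no filter and fits of WT with 1 line alone left the count of genes passing for the lines minus WT or for that line minus WT at 0. Comparisons of B2 with C4 and at a single NaCl level were put through these alternatives by a choice made after seeing the data. No paired analysis was possible because the groups share no replicate numbers in the labels. The intervals given are per gene and do not allow for the adjustment over all genes tested. With 2 WT libraries at 150 mM, even differences whose interval excluded 0 did not pass by edgeR. Smaller differences could go undetected.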
